A study of Homo sapiens with 9 samples.

Results

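Monocytes and their precursors carry a set of surface receptors that sense growth factors, immunoglobulin, complement and bacterial products, and 10 genes of this kind were followed: the growth factor receptors CSF1R, CSF2RA and CSF3R, the integrin chains ITGAM and ITGAX, the Fc receptors FCGR1A and FCGR2A, the lipopolysaccharide receptor CD14, the sialic acid-binding lectin CD33, and CD68, a lysosomal glycoprotein used as a macrophage marker. The members were taken by gene name from a table of 60612 genes. All 10 names were found, each on 1 row, and all 10 passed the filter on low values that left 12586 genes for testing. The cells were MV4-11, an established human acute myeloid leukaemia line with an MLL fusion and monocytic features, and RNA sequencing was done at 72 h. There were 3 libraries of each of 3 title stems. By their characteristics KO1 is wild type given vehicle, NC1 is wild type given decitabine, and NCO is CD36 knockdown given decitabine, a nucleoside drug whose incorporation into DNA depletes DNA methyltransferases. The labels give no drug dose, do not say how the knockdown was made or controlled, and name a single cell line. They do not say whether the 3 libraries of a stem came from separate cultures, so p-values measure only the spread between these libraries.

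As background, the 3 growth factor receptors bind M-CSF, GM-CSF and G-CSF, and they steer progenitors towards macrophages, mixed myeloid cells and neutrophils. ITGAM and ITGAX are alpha chains that reach the surface only when paired with the common beta chain ITGB2. The Fc receptors bind IgG and trigger phagocytosis, FCGR1A through the adaptor chain FCER1G and FCGR2A through a signalling motif of its own. In the myeloid lineage many of these genes are driven by the transcription factor PU.1, which binds purine-rich DNA around a GAGGAA core.

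The stems and the characteristics do not sit easily together, since KO1 reads as a knockout yet is described as wild type given vehicle. CD36 was at 0.126 ± 0.023 FPKM (SD, n = 3) in the libraries labelled KO1, 2.18 ± 0.37 in NC1 and 2.49 ± 0.34 in NCO, so it was not lower in the libraries labelled as knockdown than in NC1 (difference 0.14 on the log2 scale, 95% confidence interval -0.11 to 0.38, adjusted p = 0.436 in limma). Groups are therefore named by stem, and every direction below is one between stems. CD36 was under 1 FPKM in every KO1 library and passed the filter on low values through NC1 and NCO. FPKM is a fragment count scaled to transcript length and library size. The FPKM sums of the libraries lay between 493061 and 530097, and the number of fragments behind each value is unknown. NC1 replicate 3 stood somewhat apart, with mitochondrial genes at 14.5% of its FPKM sum against 17.6% and 17.3% in the other NC1 libraries. This share was 14.9% ± 0.434 for KO1, 16.5% ± 1.72 for NC1 and 18.1% ± 0.573 for NCO, and its part in the results below was not tested.

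The cell type was checked against marker lists. Of 8 monocyte markers, among them the members CD14 and CSF1R, 6 passed the filter. The sum of all 8 was 369 to 381 FPKM for KO1, 379 to 409 for NC1 and 334 to 342 for NCO. Most of this sum was LST1, at 314 ± 7.8, 309 ± 16 and 261 ± 4.6 FPKM. Of the 6, 4 were called higher and 0 lower in NC1 minus KO1, against 28.9% and 18.3% of all tested genes. In NCO minus NC1 0 were higher and 2 lower, against 6.12% and 8.62%. In NCO minus KO1 3 were higher and 1 lower, against 32.1% and 20.1%. The 4 higher in NC1 minus KO1 include MPEG1, which was under 1 FPKM in every KO1 library. It passed the filter through NC1 and NCO, so its call is description only. The classical monocyte genes FCN1 and VCAN stayed below 1 FPKM in every library. Of 7 progenitor markers, ELANE, FLT3, IL3RA and MPO were tested, whereas PROM1 was listed at 0 throughout. KIT and CD34 stayed at or below 0.233 FPKM. The sum of all 7 was 334 to 344 FPKM for KO1, 329 to 369 for NC1 and 289 to 317 for NCO. Most of it was ELANE, at 321 ± 5.9, 330 ± 21 and 287 ± 15. Of the 4 tested, 0 were called higher and 1 lower in NC1 minus KO1, and likewise in NCO minus NC1. In NCO minus KO1 1 was higher and 1 lower. The shares of all tested genes are those given above. The granulocyte sum lay between 8.26 and 10.6 FPKM for KO1, 15.6 and 17.2 for NC1, and 17.5 and 17.7 for NCO. CEACAM6 carried this step, at 3.76 ± 0.27, 12.1 ± 0.33 and 13.4 ± 0.52 FPKM, whereas CAMP was at 3.48 ± 1.1, 2.14 ± 0.53 and 1.44 ± 0.47, and CEACAM8 and MMP8 were at 0 in all 9 libraries. Dendritic cell markers summed to at most 0.584 FPKM, with CD1C and CLEC9A at 0. The T-cell genes CD3D, CD3E and CD3G were also at 0, and the T and NK sum was nearly all NKG7, which was higher in NC1 (35.1 ± 2.2, 47.9 ± 5.6 and 33.5 ± 1.4 FPKM; adjusted p = 0.000938 against KO1 and 0.00316 for NCO against NC1). Erythroid and megakaryocytic markers summed to 0.339 to 1.66 FPKM, with ALAS2 and PF4 at 0. B-cell markers summed to 9.62 to 10.8 FPKM for KO1, 9.51 to 10.1 for NC1 and 8.14 to 8.6 for NCO. Stromal, endothelial and epithelial markers summed to 23 to 23.9, 30.3 to 31.8 and 28.5 to 31.5 FPKM, mostly PECAM1, with CDH5 at 0. KRT8, COL1A1 and PECAM1 of this list were called higher in NC1 than in KO1, as were 28.9% of all tested genes. KRT8 and COL1A1 stayed below 1 FPKM in KO1 and passed the filter through the other groups. The part of the marker genes in the results below was not tested. In bulk RNA, fewer cells with a transcript and less of it per cell cannot be told apart.

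Ranked by FPKM, CD68 was the most abundant of the 10 in every group. In KO1 it was followed by CSF3R, FCGR1A, CD33, ITGAX, FCGR2A, CSF2RA, CSF1R, ITGAM and CD14, and only ITGAM and CD14 had overlapping libraries. In NC1 the order was CD68, CSF3R, FCGR1A, ITGAX, CD33, FCGR2A, CSF1R, ITGAM, CSF2RA and CD14, and the neighbours CD33 with FCGR2A, FCGR2A with CSF1R, and ITGAM with CSF2RA overlapped. In NCO ITGAX and FCGR1A exchanged places within overlapping ranges, as did CSF2RA and ITGAM, and no other neighbours overlapped there. CD68 lay above 93.5% of tested genes in KO1 and 98% in NC1, and CD14, the lowest member, above 64.8% and 63.3%. The 10 genes together summed to 307 ± 4.38 FPKM for KO1, 511 ± 12.9 for NC1 and 469 ± 6.59 for NCO, and CD68 alone made up 23.5% ± 0.768, 47% ± 1.87 and 41.8% ± 0.308 of these sums.

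**Figure D1:**
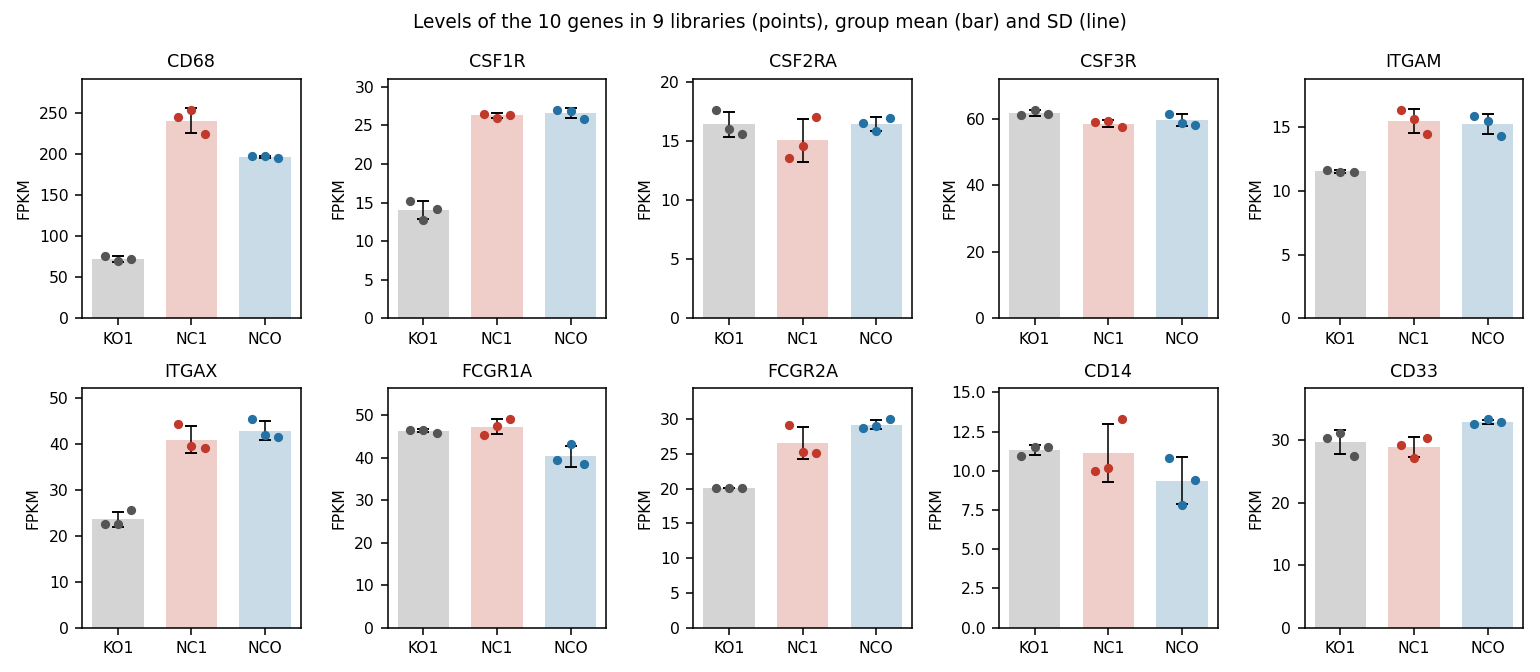
FPKM of each of the 10 genes (vertical axes, each from 0) in the 3 libraries of KO1, NC1 and NCO (points), with the group mean as a bar and the SD as a line. CD68, CSF1R, ITGAM, ITGAX and FCGR2A are higher in every NC1 and NCO library than in any KO1 library, and the other 5 genes show no such step.

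NC1 against KO1 is labelled as decitabine against vehicle in wild-type cells. CD68, CSF1R, ITGAX, ITGAM and FCGR2A were higher in NC1, and CSF2RA, CSF3R, FCGR1A, CD14 and CD33 were not called. A gene was called at an adjusted p under 0.05 in a limma fit to log2(FPKM + 1) over all 9 libraries. The 5 higher members stand against 28.9% of all tested genes called higher, and 0 members were lower, against 18.3% of all genes. At an unadjusted p under 0.05, 0 were lower as well in limma, the only method run across all genes. In either direction 47.2% of all genes were called, so 5 of 10 is near the background. The median difference of the 10 was 0.21 on the log2 scale, against 0.06 over all tested genes. For 6 of the 10 members no NC1 library lay within the KO1 range or the reverse, against 56.5% of all genes. The balance of directions over all genes depended on scaling: 3637 genes were higher and 2300 lower, but trimmed-mean scaling gave 2847 and 3228, quantile normalization 2736 and 3078, and removal of mitochondrial genes 4519 and 1742. In the last setting, here and below, the remaining FPKM sums of the libraries were also made equal. The 5 higher members were called in each of these settings. Without NC1 replicate 3, 5 members were again higher and CSF2RA became lower.

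By the characteristics, NCO and NC1 differ in CD36 knockdown, with decitabine in both. CD68 and FCGR1A were lower in NCO and the other 8 members were not called. These 2 lower members stand against 8.62% of all genes called lower, and 0 higher members against 6.12%. At an unadjusted p under 0.05, 2 members, CD33 and FCGR2A, were higher in limma, the only method run across all genes. In either direction 14.7% of all genes were called. The median difference of the 10 was 0.02, against 0.01 over all genes, and 3 of 10 members did not overlap, against 34.3%. Over all genes 770 were higher and 1085 lower, whereas quantile normalization gave 1072 and 923, and removal of mitochondrial genes 1730 and 748. Without NC1 replicate 3 the same 2 members were lower and CD33 was called higher.

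NCO against KO1 shares its libraries with both comparisons above and is no independent evidence for either. The 5 members higher in NC1 were also higher in NCO, against 32.1% of all genes called higher, and FCGR1A was lower, against 20.1%. In either direction 52.2% of all genes were called. The median difference of the 10 was 0.26, against 0.08 over all genes, and 8 of 10 members did not overlap, against 61.2%. Over all genes 4041 were higher and 2527 lower, whereas trimmed-mean scaling gave 3121 and 3443, quantile normalization 3027 and 3080, and removal of mitochondrial genes 5786 and 1618. Without NC1 replicate 3, 6 members were higher and 2 lower, CD33 and CD14 being the additions.

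**Figure D2:**
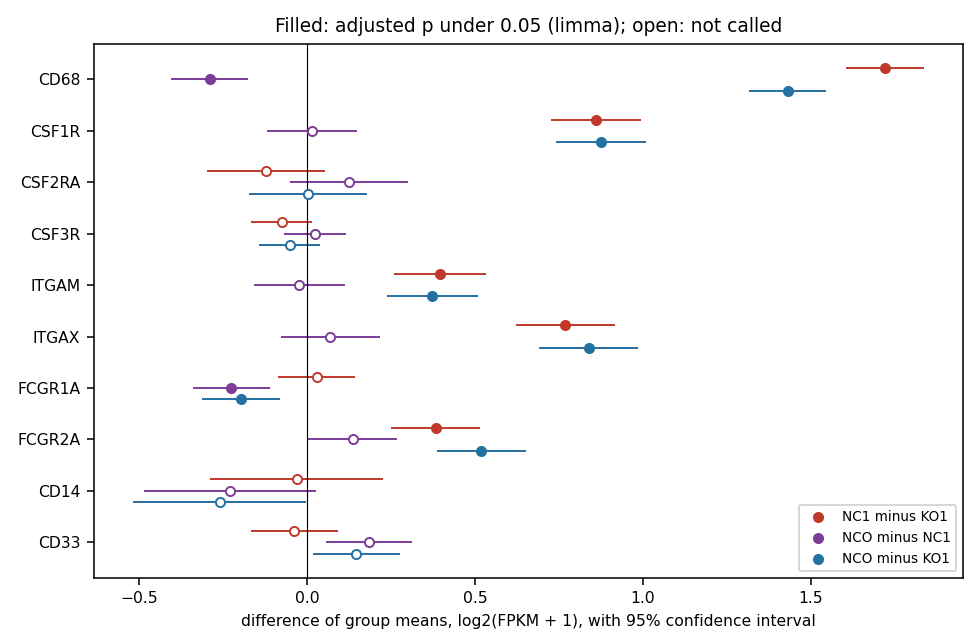
Difference of group means on the log2(FPKM + 1) scale (horizontal axis) with its 95% confidence interval for each gene in the 3 comparisons. Filled points passed an adjusted p under 0.05 in limma. CD68 has the largest shift from KO1, at 1.72 in NC1 and 1.43 in NCO, and CD68 and FCGR1A have the filled points below 0 in NCO minus NC1.

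CD68 (ENSG00000129226, chr17:7579491-7582111, plus strand, GRCh38) encodes a heavily glycosylated protein of late endosomes and lysosomes, a small part of which cycles to the surface. Its level was 75.6, 69.0 and 71.8 FPKM in the KO1 libraries, 244, 253 and 224 in NC1, and 197, 197 and 194 in NCO. The 3 groups did not overlap, with KO1 lowest, NCO between and NC1 highest. The ratio of means was 3.33 for NC1 over KO1, a log2 difference of 1.72 (1.61 to 1.84, adjusted p = 8.16e-10), and 2.72 for NCO over KO1 (1.43, 1.32 to 1.55, adjusted p = 4.8e-09). NCO was at 0.816 of the NC1 level (-0.29, -0.40 to -0.17, adjusted p = 0.00603), and this call was lost after quantile normalization (-0.15, adjusted p = 0.0751; over all alternatives the adjusted p lay between 0.00195 and 0.0751). A long non-coding gene on the same strand, AC016876.3, overlaps CD68 over 2534 bases and was listed at 1.36, 4.2 and 3.4 FPKM in KO1, NC1 and NCO. How fragments were divided between them is not given in the sources used here.

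The promoter of CD68 is shown because CD68 moved most among the members. It is the RefSeq window of 250 bases before the transcript start on GRCh38.p14, chr17:7579388-7579637, plus strand, and lies partly inside the longer gene span of the deposited table. Capitals mark matches on either strand to GAGGAA, to the AP-1 site TGANTCA and to TTGCNNAA, a form of the C/EBP site.
CD68: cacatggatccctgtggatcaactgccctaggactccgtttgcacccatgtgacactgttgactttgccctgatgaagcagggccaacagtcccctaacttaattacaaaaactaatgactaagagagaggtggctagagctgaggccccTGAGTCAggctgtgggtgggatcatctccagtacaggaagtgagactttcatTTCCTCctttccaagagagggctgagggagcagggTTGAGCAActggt
The GAGGAA match (here as TTCCTC) begins 48 bases before the start, the AP-1 match 100 and the C/EBP match 13, and none of them overlaps another. Of 35116 RefSeq windows of this length, 23.6% hold GAGGAA on either strand, 6.57% TGANTCA and 9.05% TTGCNNAA. A window was at hand for 9 of the 10 members, ITGAX being the exception, and all 9 held GAGGAA in at least 1 of their windows (11 windows in all, 9 with a match). The AP-1 letters were found for 3 of the 9, the C/EBP letters for 2, the interferon-gamma element TTCNNNGAA for 2, and the interferon-stimulated response element for 0 (6.57% and 3.02% of all windows hold the last pair). The windows of the members held 1 to 8 CpG dinucleotides, against a median of 11 over all windows, and that of CD68 held 1. These are matches of letters, present in members that moved and in members that did not. SPI1, which encodes PU.1 and is named here for that role with its values in view, was at 163 ± 3.8 FPKM for KO1, 162 ± 10 for NC1 and 145 ± 11 for NCO, and was called lower in NCO minus KO1 (adjusted p = 0.0374, lost after quantile normalization at 0.27 with mitochondrial genes removed at 0.674, and without any 1 KO1 library or NCO replicate 3 at 0.0544 to 0.143).

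The 5 genes outside the list whose levels followed CD68 most closely over the 9 libraries were PFN1 (Pearson r = 0.999), MT-RNR1 (0.998), PLAAT4 (0.997), JUP (0.997) and TMEM171 (0.997). These values describe the pattern and carry no p, since the 9 libraries share the same 3 groups. PFN1, which encodes the actin-binding protein profilin, was at 707 ± 6.3, 1761 ± 104 and 1541 ± 29.7 FPKM in KO1, NC1 and NCO. JUP, a junction protein, was at 16.3 ± 0.744, 46 ± 1.31 and 39.6 ± 1.16. MT-RNR1 is the mitochondrial 12S ribosomal RNA and stood at 917 ± 13.4, 1543 ± 30.9 and 1404 ± 21.9. TMEM171 was at 0.22 ± 0.044, 2.15 ± 0.072 and 1.76 ± 0.032. It was under 1 FPKM in every KO1 library and passed the filter through NC1 and NCO.

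CSF1R (ENSG00000182578, chr5:150053291-150113372, minus strand) is the receptor tyrosine kinase for M-CSF, on which monocytes and macrophages depend. Its level was 15.2, 12.8 and 14.2 FPKM for KO1, 26.5, 26.0 and 26.4 for NC1, and 27.0, 26.9 and 25.8 for NCO. Every NC1 and NCO library was above every KO1 library, and NC1 and NCO overlapped. NC1 was 1.87 times KO1 (0.86 on the log2 scale, 0.73 to 1.00, adjusted p = 9.22e-07) and NCO 1.89 times (0.88, 0.74 to 1.01, adjusted p = 8.92e-07). NCO minus NC1 was 0.01 (-0.12 to 0.15, adjusted p = 0.905). Of the RefSeq windows of CSF1R, the one nearer the coding part of the gene is the promoter used in myeloid cells. It is printed for its doubled core, chr5:150086555-150086804 read on the minus strand, with GAGGAA in capitals.
CSF1R: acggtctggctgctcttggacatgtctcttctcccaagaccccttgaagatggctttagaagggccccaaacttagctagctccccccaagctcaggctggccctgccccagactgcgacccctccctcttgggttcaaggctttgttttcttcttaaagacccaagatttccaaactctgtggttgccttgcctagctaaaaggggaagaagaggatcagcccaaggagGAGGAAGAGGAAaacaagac
The matches begin 20 and 14 bases before the start and adjoin each other without overlap. The other window of CSF1R, farther upstream, held no GAGGAA. The deposited values are per gene and do not separate the transcripts of these starts.

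CSF3R (ENSG00000119535, chr1:36466043-36483278) and CSF2RA (ENSG00000198223, chrX:1268800-1310381) are the receptors for G-CSF and GM-CSF, the latter as the binding alpha chain. CSF3R was at 61.2, 62.6 and 61.3 FPKM for KO1, 58.9, 59.3 and 57.4 for NC1, and 61.6, 58.9 and 58.2 for NCO. Its NC1 libraries lay just below those of KO1 without overlap, yet the difference of -0.08 (-0.17 to 0.02) was not called (adjusted p = 0.16). After trimmed-mean scaling it was called lower in both comparisons with KO1 (-0.16, adjusted p = 0.00882, and -0.15, adjusted p = 0.014). NCO overlapped both groups, at 0.02 from NC1 (-0.07 to 0.12) and -0.05 from KO1 (-0.14 to 0.04). CSF2RA was at 17.6, 16.0 and 15.7 FPKM for KO1, 13.6, 14.6 and 17.1 for NC1, and 16.6, 15.9 and 17.0 for NCO, with overlap among all groups. Its difference of -0.12 (-0.30 to 0.05, adjusted p = 0.235) between NC1 and KO1 became -0.21 without NC1 replicate 3, the highest NC1 library, and was then called (adjusted p = 0.0299), as it was after trimmed-mean scaling (-0.21, adjusted p = 0.0401). NCO differed by 0.12 from NC1 (-0.05 to 0.30) and by 0.00 from KO1 (-0.17 to 0.18), and neither was called. CSF2RA lies in the pseudoautosomal region shared by X and Y, where read placement can split, and the sources used here do not say how such reads were counted.

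CSF3R was the most abundant of the 3 growth factor receptors in all groups. In KO1 it stood at 4.41 ± 0.438 times CSF1R per length, against 2.23 ± 0.0549 times for NC1 and 2.24 ± 0.0485 times for NCO. The ratio in KO1 did not overlap that of either other group, and an exact two-sided permutation test gave p = 0.1 for both, the smallest value that 3 against 3 libraries allows. The signalling partner of CSF2RA, the common beta chain CSF2RB, was at 7.35 ± 0.47 FPKM for KO1, 6.36 ± 0.3 for NC1 and 8.1 ± 0.47 for NCO, and rose from NC1 to NCO (0.31, adjusted p = 0.0171). That call was lost without NC1 replicate 2 (adjusted p = 0.0554), without NCO replicate 1 (adjusted p = 0.062) and without a filter (adjusted p = 0.0546). The ratio of CSF2RA to CSF2RB was 2.24 ± 0.149 for KO1, 2.38 ± 0.363 for NC1 and 2.04 ± 0.142 for NCO, with overlap between all groups. Its exact permutation p was 0.6 for NC1 minus KO1 and 0.2 in both other comparisons. Among the ligands, which are named for their roles with their values in view, IL34, CSF2 and CSF3 were listed at 0 in all 9 libraries. CSF1, which encodes M-CSF, was at 2.98 ± 0.2, 3.48 ± 0.1 and 2.89 ± 0.29 FPKM and was not called, except with mitochondrial genes removed (NC1 minus KO1, adjusted p = 0.0403) and after quantile normalization (NCO minus KO1, adjusted p = 0.0493).

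ITGAX (ENSG00000140678, chr16:31355134-31382999), the alpha chain of CD11c/CD18, and ITGAM (ENSG00000169896, chr16:31259967-31332892), the alpha chain of the complement receptor CD11b/CD18, lie next to each other on the plus strand. ITGAX was at 22.6, 22.6 and 25.6 FPKM for KO1, 44.3, 39.5 and 39.0 for NC1, and 45.4, 42.1 and 41.4 for NCO. ITGAM was at 11.6, 11.5 and 11.4 for KO1, 16.3, 15.7 and 14.5 for NC1, and 15.9, 15.5 and 14.3 for NCO. For both genes KO1 lay below all other libraries, and NC1 and NCO overlapped. ITGAX was higher in NC1 by 0.77 (0.62 to 0.92, ratio 1.73, adjusted p = 4.48e-06) and in NCO by 0.84 (0.69 to 0.99, ratio 1.82, adjusted p = 2.5e-06). ITGAM was higher by 0.40 (0.26 to 0.53, ratio 1.34, adjusted p = 0.000344) and 0.37 (0.24 to 0.51, ratio 1.32, adjusted p = 0.000476). Between NC1 and NCO the differences were 0.07 (-0.08 to 0.22) and -0.02 (-0.16 to 0.11). The ratio of ITGAX to ITGAM was 2.05 ± 0.161 for KO1, 2.64 ± 0.105 for NC1 and 2.82 ± 0.0898 for NCO, with no overlap between any groups (exact permutation p = 0.1 in each comparison, the smallest possible).

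The window before ITGAM, chr16:31259725-31259974 on the plus strand, is shown as the only integrin promoter of the members at hand, with its GAGGAA match in capitals.
ITGAM: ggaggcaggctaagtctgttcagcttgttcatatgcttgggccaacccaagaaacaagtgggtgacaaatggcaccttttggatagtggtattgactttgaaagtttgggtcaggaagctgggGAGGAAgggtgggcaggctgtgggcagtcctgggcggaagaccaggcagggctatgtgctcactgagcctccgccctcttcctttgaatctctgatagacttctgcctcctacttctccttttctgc
The match begins 127 bases before the start, farther than in CD68 or CSF1R. Only the exact letters GAGGAA were searched for PU.1, so other forms of its site were not looked for.

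ITGB2, the beta chain that both alpha chains need, was far more abundant than either, at 419 ± 11 FPKM for KO1, 464 ± 3.6 for NC1 and 452 ± 22 for NCO. Its rise from KO1 to NC1 of 0.15 (adjusted p = 0.0201) was lost on trimmed-mean scaling (adjusted p = 0.306) and on quantile normalization (adjusted p = 0.382). It was also lost without trend and robust moderation (adjusted p = 0.0569), and without KO1 replicate 2 (adjusted p = 0.0802) or NC1 replicate 2 (adjusted p = 0.052). ITGAL, the alpha chain of LFA-1 and a competitor for the same beta chain, went the other way, from 80.2 ± 0.6 FPKM in KO1 to 32.5 ± 0.14 in NC1 (-1.28, adjusted p = 1.19e-09) and 35.8 ± 0.87 in NCO (-1.14 against KO1, adjusted p = 3.74e-09). Of the summed FPKM of ITGAL, ITGAM, ITGAX and ITGAD, ITGAL made up 69.6% ± 0.833 for KO1, 36.6% ± 1.57 for NC1 and 38.1% ± 0.632 for NCO. ITGAX made up 20.4% ± 1.08, 46% ± 1.41 and 45.7% ± 0.497, and ITGAM 10% ± 0.248, 17.4% ± 0.511 and 16.2% ± 0.469. The leading alpha chain transcript was therefore ITGAL in KO1 and ITGAX in both other groups. This grouping of the 4 chains was chosen after their values were seen.

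**Figure D3:**
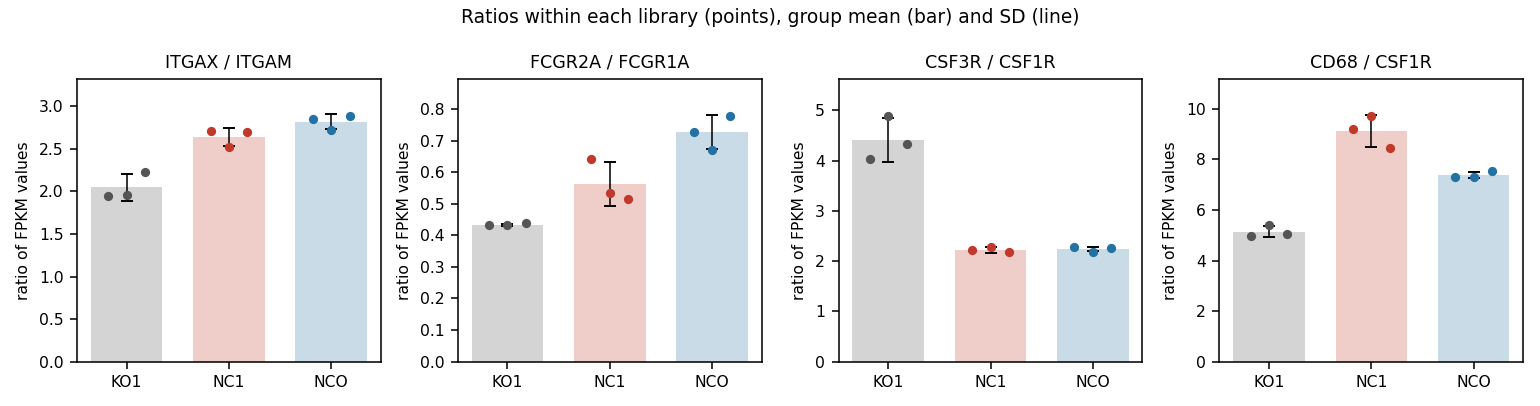
Ratios of FPKM values within each library (points; vertical axes from 0), with the group mean as a bar and the SD as a line, for ITGAX over ITGAM, FCGR2A over FCGR1A, CSF3R over CSF1R and CD68 over CSF1R. KO1 overlaps neither NC1 nor NCO in any of the 4 ratios, and the mean of CSF3R over CSF1R is 4.41 for KO1 and 2.23 for NC1. These are part of the pairs computed, of which CSF2RA over CSF2RB, not drawn, overlapped between all groups. No share over all gene pairs was computed.

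FCGR2A (ENSG00000143226, chr1:161505430-161524013), the low-affinity IgG receptor of phagocytes, was at 20.1, 20.1 and 20.1 FPKM for KO1, 29.2, 25.3 and 25.2 for NC1, and 28.7, 29.01 and 29.96 for NCO. KO1 lay below all other libraries, and NC1 replicate 1 lay within the range of NCO. NC1 was 1.32 times KO1 (0.38, 0.25 to 0.52, adjusted p = 0.000371) and NCO 1.45 times (0.52, 0.39 to 0.65, adjusted p = 3.98e-05). NCO minus NC1 was 0.14 (0.00 to 0.27, adjusted p = 0.152) and was called without NC1 replicate 1 (0.20, adjusted p = 0.0388).

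FCGR1A (ENSG00000150337, chr1:149782671-149792518), the high-affinity IgG receptor, was not called in NC1 minus KO1. It was at 46.6, 46.5 and 45.9 FPKM for KO1, 45.5, 47.5 and 49.0 for NC1, and 39.4, 43.2 and 38.5 for NCO, so that all NCO libraries lay below the rest. NC1 minus KO1 was 0.03 (-0.09 to 0.14, adjusted p = 0.675). NCO was lower than NC1 by 0.23 on the log2 scale (-0.23, -0.34 to -0.11, adjusted p = 0.0177), but not past the threshold after quantile normalization (adjusted p = 0.0531), without a filter (adjusted p = 0.0614), or without NC1 replicate 2 (0.0502), NCO replicate 1 (0.0606) or NCO replicate 3 (0.0526). The adjusted p of this difference lay between 0.00949 and 0.0614 over all alternatives. NCO minus KO1 was -0.20 (-0.31 to -0.08, adjusted p = 0.00892) and was lost with mitochondrial genes removed (-0.06, adjusted p = 0.306). FCGR2A per FCGR1A was 0.434 ± 0.00339 for KO1, 0.563 ± 0.0696 for NC1 and 0.726 ± 0.0537 for NCO, again with no overlap (exact permutation p = 0.1 in each comparison, the smallest possible).

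The windows before the Fc receptor genes are shown because FCGR2A was called higher than KO1 in both other groups and FCGR1A in neither. Both are on the plus strand of chromosome 1, at chr1:161505207-161505456 and chr1:149782444-149782693, with GAGGAA (as TTCCTC) and, in FCGR1A, TTCNNNGAA in capitals.
FCGR2A: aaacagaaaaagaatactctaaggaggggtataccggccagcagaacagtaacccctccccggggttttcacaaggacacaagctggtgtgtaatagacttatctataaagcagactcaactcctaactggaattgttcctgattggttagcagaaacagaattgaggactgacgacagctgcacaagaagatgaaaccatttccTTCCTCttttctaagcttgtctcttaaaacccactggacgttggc
FCGR1A: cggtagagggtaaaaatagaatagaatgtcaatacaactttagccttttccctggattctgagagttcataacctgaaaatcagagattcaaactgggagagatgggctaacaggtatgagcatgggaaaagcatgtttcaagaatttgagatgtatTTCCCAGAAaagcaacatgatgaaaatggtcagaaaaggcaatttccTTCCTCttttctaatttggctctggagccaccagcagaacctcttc
The GAGGAA match begins 45 and 46 bases before the start. Around it the windows share the same 20 bases, atttccTTCCTCttttctaa, at chr1:161505406-161505425 and chr1:149782642-149782661. Of all 35116 windows, 2 hold this stretch on either strand, those of these genes. The TTCNNNGAA match of FCGR1A begins 93 bases before the start and has no counterpart in the FCGR2A window.

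FCER1G, the gamma chain that carries the signalling motif for FCGR1A, was at 150 ± 11 FPKM for KO1, 195 ± 16 for NC1 and 153 ± 3.3 for NCO. It was higher in NC1 than in KO1 (0.38, adjusted p = 0.00089) and lower in NCO than in NC1 (-0.34, adjusted p = 0.00872), and kept both calls in every alternative. TYROBP, the related adaptor DAP12, was at 198 ± 4.2, 227 ± 21 and 196 ± 3.7. Its rise of 0.19 (adjusted p = 0.0215) and fall of 0.20 (-0.20, adjusted p = 0.0413) were lost after trimmed-mean scaling (adjusted p = 0.266 and 0.065). The rise was also lost without NC1 replicate 1 or 2 (0.0853 and 0.0775) and without KO1 replicate 1 or 3 (0.0641 and 0.0583), and the fall without any 1 library other than NC1 replicate 3 (0.054 to 0.128). The close relatives FCGR2C and FCGR2B were higher in NC1 than in KO1, FCGR2C at 2.19 ± 0.35 and 5.92 ± 0.41 FPKM (adjusted p = 2.55e-06) and FCGR2B at 1.31 ± 0.15 and 2.17 ± 0.1 (adjusted p = 0.00112). FCGR1B, chosen with its values in view, stood at 11.7 ± 2.1 and 17.5 ± 0.63 FPKM (adjusted p = 0.00122). FCGR1CP, listed as a pseudogene and chosen in the same way, was at 7.80 ± 0.51 and 7.63 ± 0.43 FPKM and was not called (adjusted p = 0.764). These genes are similar in sequence to FCGR2A or FCGR1A, to differing degrees, so their division of reads is uncertain and the members' own values share that doubt. Of 12 paralogs found among the deposited genes, 7 were tested. In NC1 minus KO1 4 were higher and 1 lower (median 0.46), against 28.9% and 18.3% of all tested genes. In NCO minus NC1 1 was higher and 0 lower (median -0.05), against 6.12% and 8.62%. At an unadjusted p under 0.05, 2 were lower there in limma, the only method run across all genes. In NCO minus KO1 4 were higher and 1 lower (median 0.28), against 32.1% and 20.1%. The single paralog called higher in NCO minus NC1 was ITGAL (adjusted p = 0.0469). In that comparison 0 were higher without any 1 library, without a filter, on trimmed-mean scaling, with the replicate block or without trend and robust moderation. With only the 2 groups in the fit, and without KO1 replicate 2, 0 were higher and 1 lower.

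**Figure D4:**
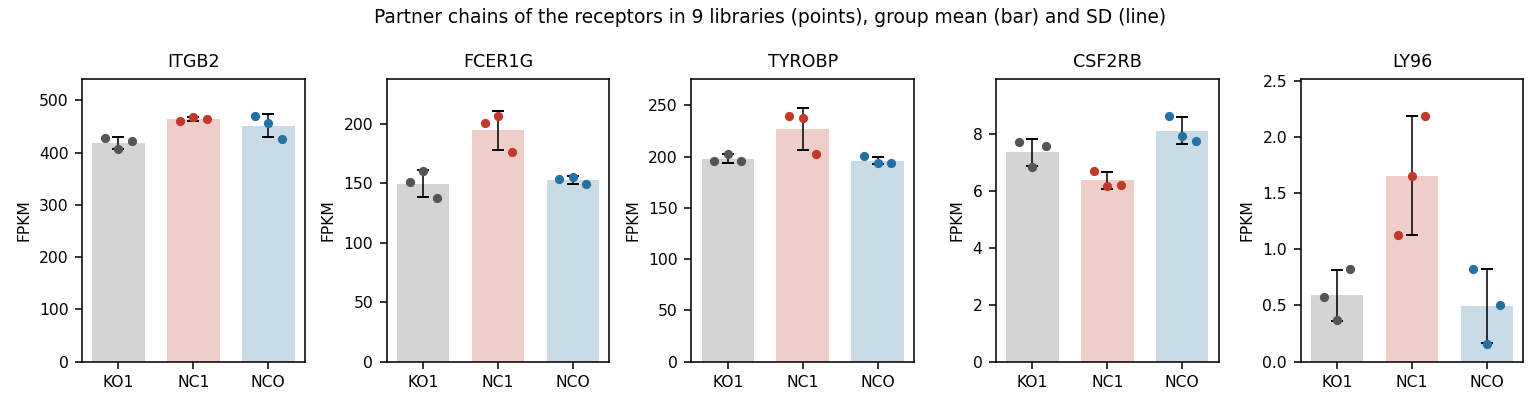
FPKM of the partner chains ITGB2, FCER1G, TYROBP, CSF2RB and LY96 (vertical axes from 0) in the 3 libraries of each group (points), with the group mean as a bar and the SD as a line. FCER1G is at 150 for KO1, 195 for NC1 and 153 for NCO, and LY96 is likewise highest for NC1, at 0.59, 1.65 and 0.496. LY96 reached 1 FPKM, the level of the filter, only in NC1.

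CD14 (ENSG00000170458, chr5:140631728-140633701) hands lipopolysaccharide to TLR4 and its co-receptor LY96. It was at 10.9, 11.5 and 11.5 FPKM for KO1, 10.02, 10.2 and 13.3 for NC1, and 10.8, 7.83 and 9.42 for NCO. NC1 overlapped both other groups, with replicate 3 above all KO1 libraries, and the NCO libraries all lay below those of KO1. NC1 minus KO1 was -0.03 (-0.29 to 0.23, adjusted p = 0.85), NCO minus NC1 was -0.23 (-0.49 to 0.03, adjusted p = 0.207), and NCO minus KO1 was -0.26 (-0.52 to -0.00, adjusted p = 0.0817). The last was called on 2 other scalings, trimmed-mean (-0.35, adjusted p = 0.0184) and quantile (-0.33, adjusted p = 0.0335), without NC1 replicate 3 (adjusted p = 0.0365), without NCO replicate 1 (-0.36, adjusted p = 0.0289) and with only these 2 groups in the fit (adjusted p = 0.0481). LY96 was at 0.59 ± 0.23, 1.65 ± 0.53 and 0.496 ± 0.33 FPKM. It reached 1 FPKM only in NC1 and so passed the filter through the group where it is high. Its calls are therefore given as description only. LY96 was called higher in NC1 than in KO1 (0.73, adjusted p = 0.00877) and lower in NCO than in NC1 (-0.83, adjusted p = 0.0168). The latter call was lost without NC1 replicate 2 at 0.0503, without NCO replicate 2 at 0.0582 and without a filter at 0.0783. TLR4, named for its role with its values in view, stayed under the filter at 0.277 ± 0.055, 0.501 ± 0.18 and 0.62 ± 0.19. Of the 11 partners and ligands 7 were tested in limma, the only method run across all genes. In NC1 minus KO1 4 were higher and 0 lower (1 lower at an unadjusted p under 0.05), against 28.9% and 18.3% of all tested genes. In NCO minus NC1 1 was higher and 3 lower, against 6.12% and 8.62%. LY96 is among the 4 and the 3. In NCO minus KO1 0 were called (1 higher at an unadjusted p under 0.05), against 32.1% higher and 20.1% lower. The medians of the 7 genes were 0.17, -0.21 and 0.03. The counts in NC1 minus KO1 became 2 higher and 1 lower on trimmed-mean scaling, 2 and 0 without NC1 replicate 2, and 6 and 0 with mitochondrial genes removed. Those in NCO minus NC1 became 0 and 1 without NC1 replicate 2 or without a filter, 0 and 2 without NCO replicate 1, and 1 and 1 without NCO replicate 2. In NCO minus KO1 removal of mitochondrial genes gave 3 higher and 0 lower, and 1 was higher without KO1 replicate 2, NC1 replicate 3 or NCO replicate 3.

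CD33 (ENSG00000105383, chr19:51225064-51243860), an inhibitory receptor of myeloid cells and a target of antibody therapy in this leukaemia, was at 30.4, 31.2 and 27.5 FPKM for KO1, 29.2, 27.2 and 30.3 for NC1, and 32.6, 33.3 and 32.9 for NCO. All NCO libraries lay above all others, and KO1 and NC1 overlapped. The differences of 0.18 from NC1 (0.06 to 0.31, adjusted p = 0.0581) and 0.15 from KO1 (0.02 to 0.28, adjusted p = 0.0555) were not called, and NC1 minus KO1 was -0.04 (-0.17 to 0.09, adjusted p = 0.624). With mitochondrial genes removed NCO was called higher than NC1 (0.25, adjusted p = 0.0105) and than KO1 (0.28, adjusted p = 0.000975), and so it was after quantile normalization (adjusted p = 0.0199 and 0.0172). The former was also called with a filter of 5 FPKM (0.0415) and without KO1 replicate 3 (0.0433) or NC1 replicate 3 (0.0444), and the latter with that filter (0.04999), with only these 2 groups in the fit (0.0476) and without KO1 replicate 2 (0.0435), NC1 replicate 2 (0.0477) or NC1 replicate 3 (0.0439). Over all alternatives the adjusted p lay between 0.0105 and 0.176 for the former and between 0.000975 and 0.463 for the latter.

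Below the receptors, 18 signalling genes were tested. In NC1 minus KO1 4 were higher and 6 lower (median -0.12), against 28.9% and 18.3% of all tested genes. STAT3, a transcription factor activated by the G-CSF receptor, rose from 8.54 ± 0.12 to 28 ± 1.1 FPKM (adjusted p = 1.19e-09), JAK2, the kinase bound to the cytokine receptors, from 1.35 ± 0.061 to 3.9 ± 0.3 (adjusted p = 1.22e-06), and the phospholipase PLCG2 from 12.7 ± 0.85 to 29 ± 0.89 (adjusted p = 4.33e-07). SYK, the kinase that binds phosphorylated Fc receptor chains, fell from 38.2 ± 0.47 to 31.3 ± 0.37 (adjusted p = 0.000308). In NCO minus NC1 7 were higher and 0 lower (median 0.10), against 6.12% and 8.62% of all tested genes. At an unadjusted p under 0.05, 1 was lower in limma, the only method run across all genes. JAK2 rose further to 5.55 ± 0.31 (adjusted p = 0.00693) and PLCG2 to 37.8 ± 3.8 (adjusted p = 0.00957), and SYK was at 36 ± 0.94 (adjusted p = 0.0145, lost without NCO replicate 2 at 0.0622). The 7 became 2 without NCO replicate 2, 3 without NC1 replicate 2, without NCO replicate 1 or without a filter, 4 without NC1 replicate 1, and 11 after quantile normalization or with mitochondrial genes removed. In NCO minus KO1 4 were higher and 3 lower (median -0.02), against 32.1% and 20.1% of all tested genes. These counts turned to 4 and 7 on trimmed-mean scaling and 7 and 0 with mitochondrial genes removed. The balance in NC1 minus KO1 was 3 higher and 11 lower on trimmed-mean scaling, 3 and 9 on quantile normalization, and 4 and 3 once mitochondrial genes were left out.

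Among 32 other surface genes of monocytes and macrophages, 19 were tested. In NC1 minus KO1 10 were higher and 2 lower (median 0.30), against 28.9% and 18.3% of all tested genes. SIGLEC1, a sialic acid-binding lectin of macrophages and a relative of CD33, was at 1.88 ± 0.083 FPKM for KO1, 9.59 ± 0.4 for NC1 and 5.59 ± 0.74 for NCO (adjusted p = 2.58e-08 for NC1 minus KO1 and 0.00126 for NCO minus NC1). The inhibitory receptor LILRB1 rose from 2.57 ± 0.33 to 5.5 ± 0.36 (adjusted p = 1.65e-05) and the aminopeptidase ANPEP, known as CD13, from 186 ± 5.6 to 257 ± 16 (adjusted p = 4.45e-05). In NCO minus NC1 0 were higher and 2 lower (median -0.03), against 6.12% and 8.62% of all tested genes. At an unadjusted p under 0.05, 2 were higher in limma, the only method run across all genes. The 2 lower genes were SIGLEC1 and TREM2. TREM2, a lipid-sensing receptor, was at 22.2 ± 1.4, 29.2 ± 1.6 and 22.7 ± 0.18 FPKM for KO1, NC1 and NCO (adjusted p = 0.00436). In NCO minus KO1 10 were higher and 0 lower (median 0.23), against 32.1% and 20.1%, with 1 lower at an unadjusted p under 0.05 in limma. The 10 higher in each comparison with KO1 include CD36 and ADGRE1, named here because of the filter. Both were under 1 FPKM in every KO1 library and passed the filter through NC1 and NCO, so their calls are description only. On trimmed-mean scaling the counts were 8 and 3 in NC1 minus KO1 and 7 and 3 in NCO minus KO1, and on quantile normalization the latter were 6 and 1. With a filter of 5 FPKM, which tested fewer genes, 4 were higher in each of these comparisons. With mitochondrial genes removed 2 were higher and 2 lower in NCO minus NC1. The scavenger receptors MRC1, MSR1 and CD163, named with their values in view, stayed under the filter, and MRC1 was listed at 0.

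Of 16 further monocyte and macrophage genes 14 were tested. In NC1 minus KO1 8 were higher and 3 lower (median 0.23), against 28.9% and 18.3% of all tested genes. In NCO minus NC1 0 were higher and 3 lower (median -0.07), against 6.12% and 8.62%. At an unadjusted p under 0.05, 0 were higher there too in limma, the only method run across all genes. In NCO minus KO1 6 were higher and 5 lower (median 0.14), against 32.1% and 20.1%. MPEG1, among the 8 higher in NC1 minus KO1, was under 1 FPKM in every KO1 library and passed the filter through NC1 and NCO. Its call is description only. The transcription factor KLF4, which acts in monocyte differentiation, was at 6.13 ± 0.41 FPKM in KO1. It rose to 21 ± 0.22 in NC1 (adjusted p = 3.98e-09) and stood at 21.3 ± 1.1 in NCO. MNDA, a nuclear antigen of myeloid cells, was at 3.41 ± 0.13, 8.71 ± 0.59 and 6.69 ± 0.6. LAPTM5, a lysosomal membrane protein of blood cells, fell from 280 ± 3.3 to 194 ± 9.5 in NC1 (adjusted p = 5.79e-06) and stood at 183 ± 7.6 in NCO. The 8 higher in NC1 minus KO1 became 5 without KO1 replicate 3 or without a filter. In NCO minus NC1 the 0 higher and 3 lower became 0 and 1 without a filter and 1 and 1 on quantile normalization. In NCO minus KO1 trimmed-mean scaling gave 3 higher and 5 lower, quantile normalization 6 and 2, and leaving out NCO replicate 2 gave 4 and 5.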

How the data were processed

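RNA of MV4-11 cells was extracted with Trizol and made into libraries with a TruSeq RNA kit, per the labels' protocols. CASAVA 1.8, Trimmomatic, FastQC, HISAT2, StringTie and edgeR and the build GRCh38 are named in the submitters' processing notes, with no role or order. The annotation release and the strand setting are not given in the sources used here. The deposited values are FPKM made by the authors, a unit read from their size and from StringTie, since the header names none. Low values showed no steps of single reads (at most 0.212% of low genes shared the commonest ratio between 2 libraries), so no counts were recovered and no counting interval is given.

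Genes with at least 1 FPKM in at least 3 of 9 libraries were tested (12586, with 48026 left out), as log2(FPKM + 1), in limma 3.58.1 under R 4.3.3 with trend and robust moderation, a mean per group, and Benjamini-Hochberg adjustment over all of them. This scale understates the fold changes of low genes. Intervals are 95% confidence intervals. Exact two-sided permutation tests used scipy 1.17.1. The method was tested on simulated data. Promoters are RefSeq windows, GRCh38.p14. The 19 alternatives began with pseudocounts of 0.1 and 0.5, no filter, a filter of 5 FPKM in 3 libraries, trimmed-mean scaling and quantile normalization. In another, mitochondrial genes were removed and the remaining FPKM sums made equal. The others were a replicate block, no trend and robust moderation, only the 2 groups compared, and each of the 9 libraries left out in turn. Their effects are given with the results and in the closing section.

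The members and lists were chosen with earlier results of these data known. Named genes are the 10 members, CD36, up to 4 called genes per list and comparison with the smallest adjusted p, and the 5 genes most like CD68. Further sheets of the workbook were not used here. Some genes that meet this rule are not reported here.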

Additional observations from a re-analysis of the deposited data

How the results depend on the processing

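Of the members called, CD68, CSF1R, ITGAX, ITGAM and FCGR2A kept their direction and call in both comparisons with KO1 under all 19 alternatives, and CD36 kept its own under the 18 that tested it (a filter of 5 FPKM left it out, and its difference for NC1 minus KO1 was 1.49 as reported and 3.33 with a pseudocount of 0.1). In NCO minus NC1 the 2 members called became 1 without a filter (CD68) and 1 after quantile normalization (CD33, higher, in place of CD68 and FCGR1A), and the 1855 genes called became 781 without a filter, where 29350 genes were tested. Leaving out each library in turn gave 1 to 3 members (CD68 alone without NC1 replicate 2, NCO replicate 1 or NCO replicate 3) and 908 to 1708 genes in NCO minus NC1, 5 to 6 members in NC1 minus KO1 and 6 to 8 in NCO minus KO1. The lowest counts of genes were 908 without NCO replicate 2, 1055 without NCO replicate 1 and 1076 without NC1 replicate 2.

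The values that changed sign were called in neither setting. With mitochondrial genes removed and the remaining sums made equal, NC1 minus KO1 was 0.0345 for CD14 and 0.0308 for CD33. In that setting NCO minus KO1 was 0.0849 for CSF3R, and NCO minus NC1 was 0.0402 for ITGAM. It moved the median of all genes in NCO minus KO1 from 0.08 to 0.19. Trimmed-mean scaling gave -0.0589 for FCGR1A in NC1 minus KO1 and -0.0893 for CSF2RA in NCO minus KO1, and quantile normalization gave -0.0195 for CSF2RA and 0.0141 for CSF3R in NCO minus KO1. Over single libraries left out, CD14 ranged from -0.152 to 0.0351 and CD33 from -0.091 to 0.0032 in NC1 minus KO1, CSF2RA from -0.03 to 0.0516 in NCO minus KO1, and ITGAM from -0.0674 to 0.0177 in NCO minus NC1. The cause was not tested. Same-numbered libraries deviated together at correlations of -0.10 to 0.08, so the numbers were not taken as pairs. The replicate block gave 5 members and 5618 genes in NC1 minus KO1, 2 and 1389 in NCO minus NC1, and 6 and 6230 in NCO minus KO1. With FPKM alone, depth is unknown, so what it limits cannot be stated.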
